A study of Mus musculus with 2 samples.

Results

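The genes described here encode histone deacetylases (HDACs and sirtuins), Polycomb and heterochromatin proteins, and chromatin remodellers, measured in cultured mouse hepatoblasts. They were chosen by gene symbol: every gene probe of the array whose symbol is an Hdac, Sirt, Ezh, Suz12, Eed, Cbx, Smarc, Chd or Arid gene name. This gave 61 genes with 137 probes, of 20070 named genes and 41158 gene probes in all. The groups compared were expandable hepatoblasts (eHBs, liver progenitor cells) of strain C57BL/6 at passage 20 and at passage 5, with total RNA of each hybridised to 1 Agilent array. Both cultures grew in the same chemically defined medium, which holds nicotinamide (known to inhibit sirtuin enzymes), EGF, the GSK3 inhibitor CHIR99021, the TGF-beta receptor inhibitor E-616452, LPA and S1P, on Matrigel or laminin. The labels describe the passage 20 and passage 5 cultures as independent experiments, so passage and experiment cannot be told apart, and no p-value can be given. Levels are log2 signals relative to the array's 75th percentile, differences are passage 20 minus passage 5 on the log2 scale, and levels are compared within a probe only.

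Chromatin regulators act on nucleosomes in a few ways. Deacetylases remove acetyl groups from histone tails. Polycomb repressive complex PRC2 methylates lysine 27 of histone H3, and some forms of PRC1 hold a CBX subunit that reads this mark. Remodellers of the SWI/SNF, ISWI and CHD families use ATP to slide, evict or space nucleosomes. In the liver, Ezh2 is known to hold back hepatocyte and duct genes in progenitors, and the SWI/SNF subunit Arid1a is known as a tumour suppressor.

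The oligonucleotides that measured the 6 genes past 2-fold are shown by bases 1 to 30 of 60, 5′ to 3′ in lower case, because each of these results rests on the probe shown. No part is capitalised.
Cbx7: ggtaaaagactgtatagcatctatttattt
Chd9: ggtcggaggatgaaatctaagccaaaagac
Chd2: tcacctaggtcttgtctttcaacttgttgg
Sirt4: cagaagtcagtaaaccacaactgtctatga
Hdac8: ggtcatcctagggaaaacgctatcctctga
Arid3a: gggggttgcacacaaactcaggtaaaagtg
In build mm9, per the file headers, the probe of Cbx7 lies at chr15:79746268-79746327 (- strand). That of Chd9 lies at chr8:93480528-93480587 (+ strand), and that of Chd2 at chr7:80572490-80572549 (- strand). The Sirt4 probe lies at chr5:115928163-115928222 (- strand) and the Arid3a probe at chr10:79417383-79417442 (+ strand). The ends of the Hdac8 probe map to chrX:99503070-99597969 (- strand), farther apart than its 60 bases, so its match is split in the genome. An annotation of exons and UTRs in mm9 was not used here.

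Few of these genes differed by 2-fold, in shares near those of all genes. By the probe used for each of the 61 genes, the brightest on average, 51 had signal well above background on each array. Another 5 had it at passage 5 alone and 5 had it nowhere, namely Hdac9, Hdac11, Smarca1, Smarcd3 and Chd5. Of the 56 measured genes 28 were above 0 and 28 below 0, with a median difference of -0.0048 log2, against a median of 0.07 over 11800 measured named genes. At 2-fold, 2 members were higher (3.57%) where 3.26% of all measured genes were, and 4 were lower (7.14%) where 5.73% of all were. At 1.5-fold, 4 were higher (7.14%, against 10.4% of all genes) and 10 were lower (17.9%, against 11.8%). The split of 2 higher and 4 lower was 1 and 5 with quantile normalization, with loess and in the authors' deposited values, 1 and 6 with spike-in scaling and 1 and 7 with median centring. It was 1 and 2 with normexp background correction and 2 and 2 with both arrays above background, which leaves out bounds. The split of 4 and 10 at 1.5-fold was 2 and 19 with median centring. It was 2 and 5 with normexp and 4 and 6 with both arrays above background. The 10 lower genes include Hdac8, Arid3a, Chd6 and Smarcd1, whose differences are bounds. Scaling to the spike-ins moved the median over all genes to -0.14 log2 and median centring moved it to -0.24. Median centring subtracts the median over all gene probes. Of these, 46.1% at passage 20 and 45.5% at passage 5 were well above background, so this median leans on dim probes.

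**Figure D1:**
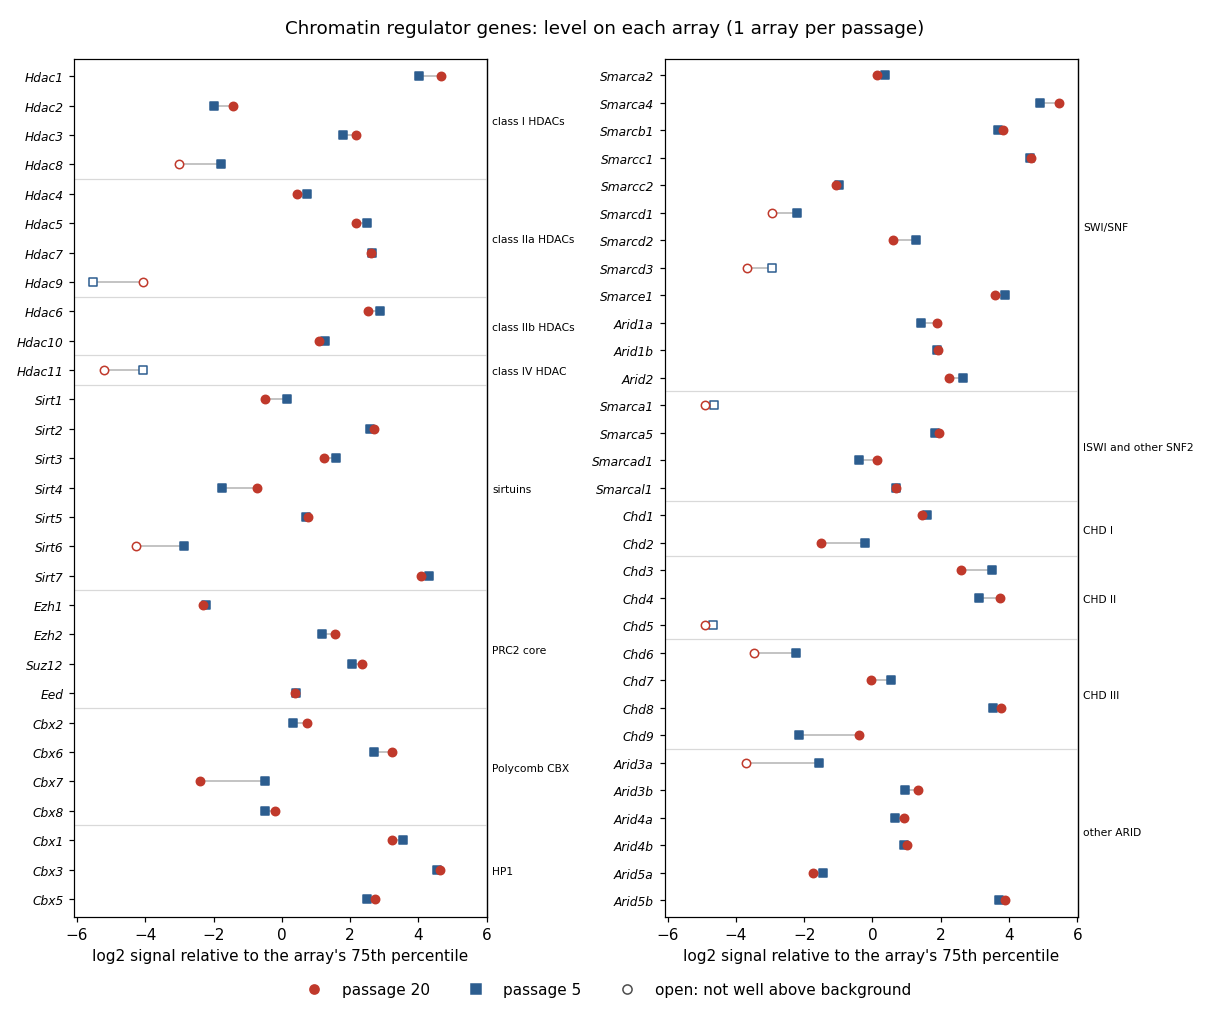
Level of each gene drawn on the passage 20 array (red circles) and the passage 5 array (blue squares), as log2 signal relative to the array's 75th percentile, by role. Open symbols are not well above background, and most filled pairs lie close together; among pairs filled on both arrays, Cbx7, Chd9, Chd2 and Sirt4 lie farthest apart.

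The arrays share 1 slide and 1 scan. On them 46.1% of gene probes at passage 20 and 45.5% at passage 5 were well above background. Each member probe has 1 spot. The SD of a single-spot difference was taken over 108 other probes with repeat spots, all well above background on both arrays. It had a median of 0.04 log2 and a 95th percentile of 0.17. This is technical error between spots of the same arrays only. It leaves out labelling and hybridisation and was not measured for dim probes. The liver markers Afp, Hnf4a, Foxa2, Krt8 and Krt18 were well above background on both arrays, and the fetal marker Dlk1, albumin (Alb) and transthyretin (Ttr) on neither. Of 10 hepatoblast markers 9 were measured and 2 were lower at 2-fold (22.2%, against 5.73% of all genes), Epcam by 2.24-fold and Gpc3 by at least 9.49-fold. In all 7 of the 9 lay below 0, with a median of -0.21 log2; Krt19 and Sox9, above background on both arrays, differed by -0.52 and -0.51. Of 3 endothelial, 2 erythroid and 4 stellate or fibroblast markers, 0, 0 and 1 were measured. The 1 is decorin (Dcn), at least 15.9-fold lower at passage 20, while Col1a1, Des and Pdgfrb were on neither array. These bounds depend on the setting: over 10 alternatives Dcn ranged from -5.61 to -2.97 log2 and Gpc3 from -3.56 to -2.02. Of 3 leukocyte markers Cd68 differed by 0.34 log2 and Lyz2 by a bound of -0.02, and Ptprc was on neither. The part of cell makeup in the results was not tested; in bulk RNA, fewer cells of a type and less RNA per cell cannot be told apart.

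Class I deacetylases, the main nuclear histone deacetylases, differed in both directions. Hdac1 had a level of 4.67 at passage 20, against 4.02 at passage 5, and was 1.57-fold higher, past 1.5-fold under 7 of 11 alternatives and 0.34 log2 with median centring. This value carries a limit: the only Hdac1 probe lies at chr17:78892656-78892726 (+ strand), whereas RefSeq places Hdac1 on chromosome 4 and a pseudogene, Hdac1-ps, on chromosome 17, so signal of the gene and of its copy cannot be told apart. For this probe, well above background on both arrays, alternatives on dim probes and on probe means repeat the main value. Hdac2, the close partner of Hdac1 in repressor complexes, had -1.44 at passage 20, against -1.98 at passage 5, a difference of 0.54. Hdac3, the catalytic subunit of the nuclear receptor corepressors, had 2.17 at passage 20, against 1.80 at passage 5, a difference of 0.37. These 3 were above 0 in the main values, as were 57.4% of all measured genes, and under all 11 alternative settings tried on them. Hdac8, a deacetylase of cohesin, went the other way. Its level was -3.02 at passage 20, not well above background, against -1.79 at passage 5, and it was at least 2.35-fold lower, with its other probe above background on neither array. It was past 2-fold under 9 of 10 alternatives; with normexp background correction the difference was -0.47.

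Hdac8, Hdac6 and Smarca1 are the 3 members on the X chromosome. Xist, which coats and silences 1 X chromosome in female cells, had a level of 5.06 at passage 20, against -0.13 at passage 5 (36.5-fold higher). Its part in the Hdac8 and Hdac6 values was not tested. The Y-linked demethylase gene Kdm5d had -4.12 at passage 20, not well above background, against -1.15 at passage 5. The sex of the cells in each culture was not tested. A difference in it could not be told apart from passage in any result here.

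The class II deacetylases, which shuttle between nucleus and cytoplasm or work in the cytoplasm, were slightly lower without exception among the measured ones. Of class IIa, Hdac4 had 0.44 at passage 20, against 0.75 at passage 5 (-0.31). Hdac5 had 2.17 at passage 20, against 2.50 at passage 5 (-0.32). Hdac7 had 2.61 at passage 20, against 2.63 at passage 5 (-0.03, its other probe -0.51). All lay below 0 and within 1.5-fold. Of class IIb, the tubulin deacetylase gene Hdac6 had 2.52 at passage 20, against 2.88 at passage 5 (-0.36). The polyamine deacetylase gene Hdac10 had 1.09 at passage 20, against 1.25 at passage 5 (-0.17, its other probe -0.53). All 5 were below 0 under the 11 alternatives as well, beside 5007 of 11800 measured named genes below 0 in the main values. None of the 5 reached 1.5-fold except under median centring, where Hdac4, Hdac5 and Hdac6 had -0.62, -0.64 and -0.67. With the usual scaling to the 75th percentile, the median over all HDAC genes without sirtuins was -0.17 log2 for 9 measured of 11.

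Sirtuins, the NAD-dependent deacylases, ranged from -0.64 to 1.05 log2 among the 6 measured on both arrays. Sirt4, a mitochondrial sirtuin that restrains glutamine use, had -0.72 at passage 20, against -1.76 at passage 5, and was 2.07-fold higher by its only probe. It stayed above 1.5-fold under all 11 alternatives but above 2-fold under 5. For its 1 probe, both arrays above background, no filter and the mean over measured probes repeat the main value. Of the rest, the 75th percentile over detected probes (1.01 log2) and flagged spots kept (1.05) were above 2-fold. Quantile normalization and the authors' deposited values gave 0.96 and normexp gave 0.74. Sirt1, the nuclear sirtuin that deacetylates p53 and many other factors, had -0.48 at passage 20, against 0.16 at passage 5, and was 1.56-fold lower, with its other probe at -0.71; with normexp the difference was -0.46. The other mitochondrial members differed less: Sirt3 by -0.35 and Sirt5 by 0.03. Sirt6, which acts at telomeres and on glycolytic genes, was well above background at passage 5 only, with -4.28 at passage 20 and -2.86 at passage 5, a bound of at least 1.24-fold lower. Sirt2, mostly cytoplasmic, had 3 probes between 0.06 and 0.13, and the nucleolar Sirt7 had probes at -0.23 and -0.18. The probes of Sirt7 share 40 bases and a pair of the Sirt2 probes share 23, so they are not separate readings.

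All 4 genes of the PRC2 core were within 1.5-fold, as were 77.8% of all measured genes. Ezh2, the main H3K27 methyltransferase of dividing cells, had 1.54 at passage 20, against 1.19 at passage 5, and was 1.28-fold higher. Suz12, the scaffold subunit, had 2.34 at passage 20, against 2.05 at passage 5, a difference of 0.30, with its other probe at 0.11. Eed, which binds the finished mark, had 0.37 at passage 20, against 0.41 at passage 5 (-0.04). Ezh1, the methyltransferase more typical of resting cells, had -2.30 at passage 20, against -2.23 at passage 5 (-0.07). Ezh2 was above 0 under all 11 alternatives and Suz12 under 10, with -0.02 under median centring.

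The Polycomb CBX genes encode interchangeable PRC1 subunits, and 1 of them, Cbx7, had the widest lower difference among the 51 genes measured on both arrays. Cbx7 had a level of -2.39 at passage 20, against -0.48 at passage 5, and was 3.74-fold lower; it was past 2-fold under all 11 alternatives, from -2.22 to -1.29 log2. It has 1 probe. Cbx2, Cbx6 and Cbx8 did not share this. Cbx2 had 0.72 at passage 20, against 0.33 at passage 5 (0.39). Cbx6 had 3.23 at passage 20, against 2.70 at passage 5 (0.53, 1 of its probes at -0.03). Cbx8 had -0.22 at passage 20, against -0.51 at passage 5 (0.29, its other probe 0.69). Cbx7 thus differed in the opposite direction to Cbx2, Cbx6 and Cbx8, of which Cbx8 was below 0 under median centring (-0.02) and the others under none of the 11 alternatives.

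The HP1 genes encode readers of methylated lysine 9 of histone H3 in heterochromatin. Cbx1 had 3.21 at passage 20, against 3.54 at passage 5 (-0.32), with its other probe at 0.34, so its direction is not settled between probes. Cbx3 had 4.62 at passage 20, against 4.54 at passage 5 (0.08, its other probe 0.52). Cbx5 had 2.73 at passage 20, against 2.49 at passage 5, and its 3 probes lay between 0.24 and 0.63.

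None of the 10 SWI/SNF genes measured on both arrays differed by 2-fold, and Smarcd1 has only a bound. Of all measured genes 91.0% were within 2-fold. Smarca4 (BRG1), an ATPase of the complex, had 5.46 at passage 20, against 4.91 at passage 5, a difference of 0.54, with its other probes at 0.18 and 0.26. The alternative ATPase Smarca2 (BRM) had 0.14 at passage 20, against 0.36 at passage 5 (-0.22), but its other measured probe was at 0.40. The core subunit gene Smarcb1 had 3.81 at passage 20, against 3.68 at passage 5 (0.13). Smarcc1, another core subunit gene, had 4.64 at passage 20, against 4.61 at passage 5 (0.03), although its other probe gave -0.76. These values show no common direction. Arid1a, the DNA-binding subunit of the canonical BAF form, had 1.88 at passage 20, against 1.41 at passage 5 (0.47). Arid1b, its alternative, had 1.93 at passage 20, against 1.88 at passage 5 (0.06). Arid2, the counterpart in the PBAF form, had 2.25 at passage 20, against 2.65 at passage 5 (-0.39), with its other probes at -0.41 and 0.59. Both measured Smarcd genes were past 1.5-fold in the lower direction, as were 11.8% of all measured genes. Smarcd2, a subunit known from granulocyte development, had 0.59 at passage 20, against 1.28 at passage 5, and was 1.61-fold lower. Smarcd1 had -2.94 at passage 20, not well above background, against -2.20 at passage 5, at least 1.67-fold lower; the bound was -0.20 with normexp and -1.05 with median centring. Smarce1 had 3.58 at passage 20, against 3.90 at passage 5 (-0.32). Smarcc2 differed by -0.08 with 1 probe and by a bound of 1.33 with the other.

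The ISWI ATPase gene Smarca5 (SNF2H) had 1.96 at passage 20, against 1.82 at passage 5 (0.14), and its 4 probes lay between 0.05 and 0.20. A pair of them share 48 bases, and 1 that was not used for the gene also matches the transcribed pseudogene Smarca5-ps. That probe lies at chr8:83233048-83233107 and the used probe at chr8:83233028-83233087, so their positions overlap and they are not separate readings. The helicase-like gene Smarcad1 had 0.13 at passage 20, against -0.41 at passage 5 (0.53, its other probe 0.10), and the annealing helicase gene Smarcal1 differed by 0.01, with another probe at -0.58.

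The CHD remodellers were the family with the smallest share near 0: 2 of 8 measured genes (25.0%) were within 1.5-fold, against 77.8% of all measured genes, with bounds taken at their value. Of the 8, 2 were higher and 4 lower at 1.5-fold (25.0% and 50.0%, against 10.4% and 11.8% of all genes). The family is named here as the extreme, and its share depends on the setting. Chd4 was past 1.5-fold under only 3 of 11 alternatives, with 0.56 under quantile normalization and 0.57 in the authors' deposited values. With normexp, Chd4 (0.51), Chd6 (-0.26) and Chd7 (-0.57) were within 1.5-fold too. With the mean over measured probes Chd4 and Chd6 were within 1.5-fold and Chd8 (0.75) was not. Chd9, a class III member, had the widest higher difference of the measured genes. It had -0.40 at passage 20, against -2.15 at passage 5, and was 3.36-fold higher, past 2-fold under all 11 alternatives. Its other measured probes also lay above 0, at 0.88 and at bounds of 0.83 and 0.67, and 2 more were above background on neither array. In the same class, Chd7, the gene mutated in CHARGE syndrome, had -0.06 at passage 20, against 0.55 at passage 5, and was 1.52-fold lower. Chd6 was well above background at passage 5 only by the probe used, with -3.46 at passage 20 and -2.25 at passage 5, at least 1.90-fold lower. Another Chd6 probe, above background at passage 20 only, gave a bound of 0.66 in the other direction. The Chd6 difference was -0.26 with normexp and -0.30 as the mean over its measured probes. That mean uses levels as measured, also where not well above background, so it is not a bound. Chd8, a regulator of beta-catenin targets, had 3.78 at passage 20, against 3.54 at passage 5 (0.24), with a dimmer probe at 1.27.

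Chd2, of class I, had -1.52 at passage 20, against -0.22 at passage 5, and was 2.46-fold lower by its only probe and past 2-fold under all 11 alternatives. Its relative Chd1, an ATPase of active genes in stem cells, had 1.44 at passage 20, against 1.61 at passage 5 (-0.17), with other probes at 0.14 and 0.30. The ATPases of the NuRD deacetylase complex, Chd3 and Chd4, lay on opposite sides of 0. Chd3 had 2.60 at passage 20, against 3.49 at passage 5, and was 1.85-fold lower; its 4 probes, spread along the transcript from base 315 to base 7045, lay between -1.55 and -0.63. Chd4 had 3.72 at passage 20, against 3.12 at passage 5, and was 1.51-fold higher, but its other probes gave 0.17 and -0.30. It was past 1.5-fold under 3 of 11 alternatives, with 0.16 for the mean over its probes and 0.29 with median centring. Chd3 was past 1.5-fold under all 11.

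Of the other ARID genes, which encode DNA-binding factors, Arid3a was past 2-fold. It had -3.71 at passage 20, not well above background, against -1.57 at passage 5, and was at least 3.04-fold lower by its only probe. It was past 2-fold under 9 of 10 alternatives; with normexp the difference was -0.75. Its relative Arid3b had 1.34 at passage 20, against 0.95 at passage 5, and 3 probes between 0.39 and 0.51. Arid4a and Arid4b, partners of the Sin3 deacetylase complex, differed by 0.25 and 0.09. Arid5a, an RNA-binding regulator of inflammatory transcripts, differed by -0.29 with 1 probe and by -1.88 with the other. Arid5b, a partner of the demethylase Phf2, had 3.89 at passage 20, against 3.70 at passage 5 (0.19), and its 6 measured probes ranged from -0.11 to 0.82.

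**Figure D2:**
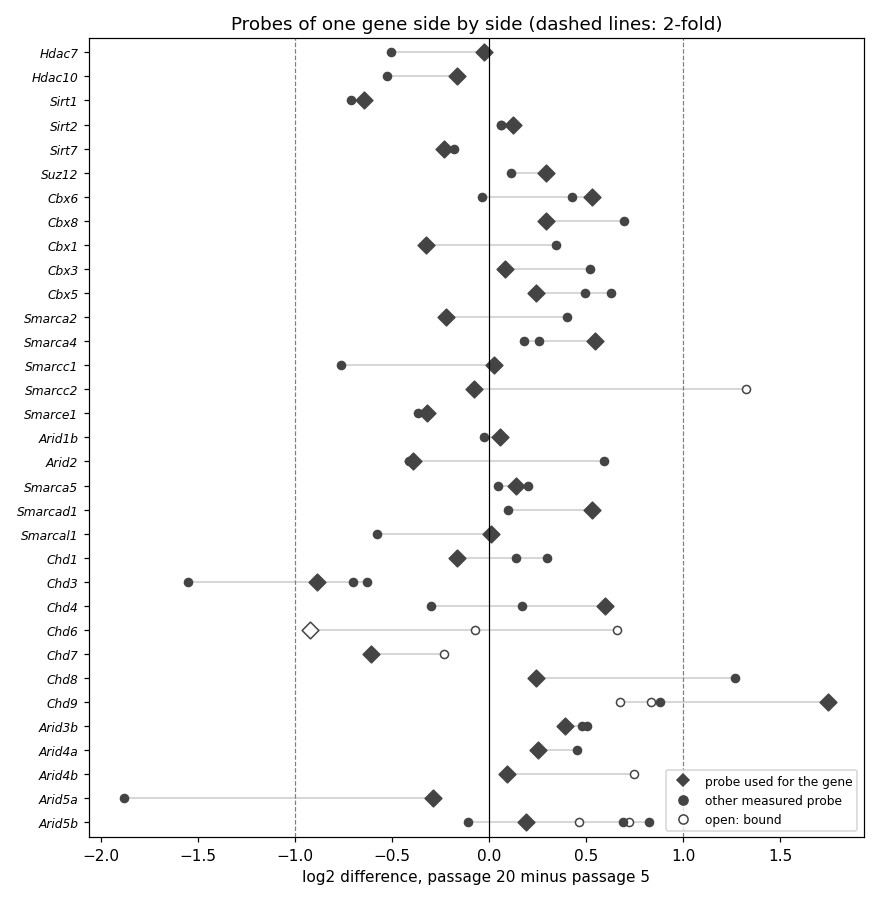
Log2 difference (passage 20 minus passage 5) of every measured probe for the 33 genes with at least 2 of them. Diamonds mark the probe used for the gene, open symbols are bounds and dashed lines mark 2-fold; all measured Chd9 probes lie above 0 and all Chd3 probes below 0, while the probes of 12 genes lie on both sides.

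Probes of 1 gene did not always give 1 direction. Of 33 genes with at least 2 measured probes, 21 had all of them on the same side of 0 and 12 had probes on both sides, and the median gap between the highest and the lowest probe was 0.46 log2. This gap is wider than many of the differences above. Of the 6 genes past 2-fold, Chd9 has several measured probes; Cbx7, Chd2, Sirt4 and Arid3a have 1 probe, and Hdac8 has 1 measured of 2.

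Genes of the same or related complexes, and acetyltransferase genes, are called partners here, though not all of them bind the proteins above. They also differed by less than 2-fold in most cases. Over 6 lists of partners, 73 of 77 genes were measured, 0 were higher and 3 lower at 2-fold (0.00% and 4.11%, against 3.26% and 5.73% of all genes), and their median was 0.12. Of 15 PRC1 genes, the median was 0.20; Pcgf2, a RING finger partner, had -3.16 at passage 20, against -2.15 at passage 5, at least 2.01-fold lower, but differed by -0.0046 with normexp. L3mbtl2 was 1.71-fold lower and the polyhomeotic gene Phc3 1.70-fold higher, while the catalytic subunit gene Rnf2 differed by -0.29 and Bmi1 by 0.20. Of 7 accessory PRC2 genes, only Rbbp4, a histone chaperone, was past 1.5-fold (1.69-fold higher, probes from -0.21 to 0.76).

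Of 11 measured further SWI/SNF genes, Bcl7b was 2.12-fold and the bromodomain gene Brd9 1.62-fold lower. Of 20 genes of the NuRD, Sin3 and CoREST complexes, which carry Hdac1 and Hdac2, 1 was higher and 3 lower at 1.5-fold (5% and 15% of the list, against 10.4% and 11.8% of all genes). Rcor2, a CoREST scaffold of embryonic stem cells and neural progenitors, had -1.83 at passage 20, against -0.10 at passage 5, and was 3.33-fold lower. The NuRD subunit gene Mbd3 had 0.46 at passage 20, against 1.34 at passage 5, and was 1.84-fold lower, and its relative Mbd2 was 1.55-fold lower. The Sin3 subunit gene Sap30 had 0.57 at passage 20, against -0.34 at passage 5, and was 1.88-fold higher. Of 10 measured ISWI partner and INO80 family genes, Rsf1 had -1.20 at passage 20, against -1.79 at passage 5, a difference of 0.59. Of 10 acetyltransferase genes, Kat5 (TIP60) had -0.33 at passage 20, against 0.58 at passage 5, and was 1.87-fold lower, whereas Ep300 and Crebbp differed by 0.44 and 0.08.

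**Figure D3:**
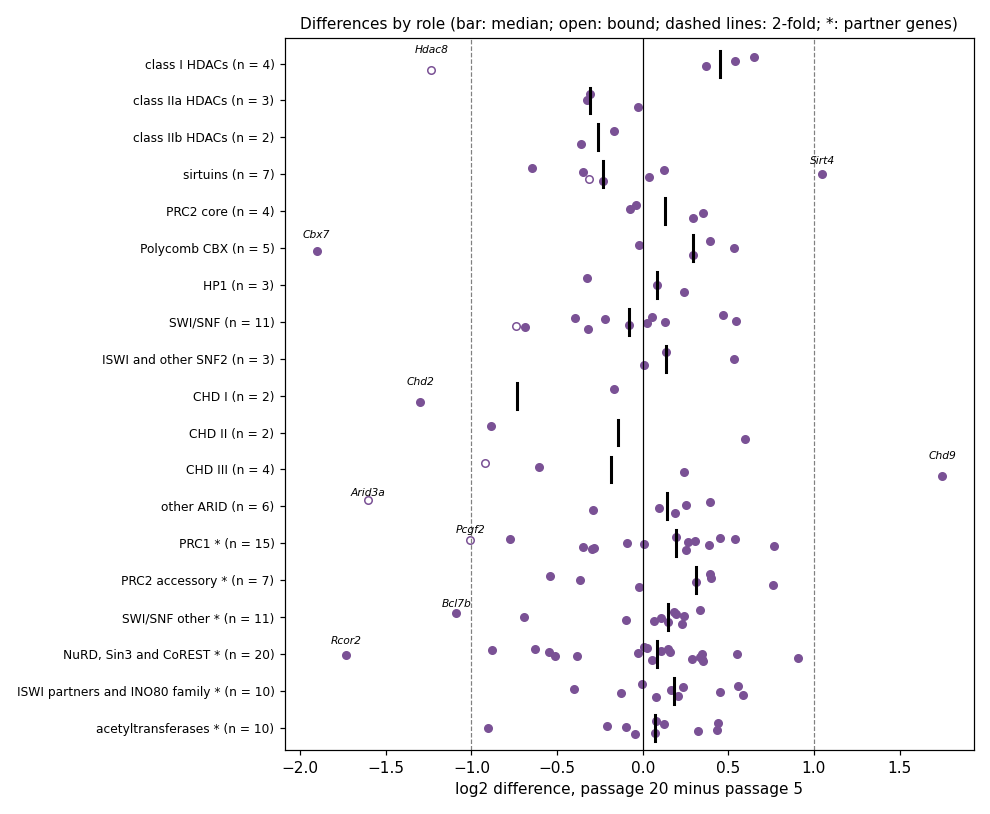
Log2 difference (passage 20 minus passage 5) of each measured gene by role, with partner lists marked by asterisks, open symbols for bounds, black bars for medians and dashed lines at 2-fold. Most genes lie between the dashed lines; those outside are named, 6 among the 61 genes and 3 among the partners.

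The promoters of these genes were rich in CpG. RefSeq promoter sequences (GRCm38.p6) were matched by symbol for 48 of the 61 genes, with 62 start sites. In the 250 bases before the start, these had a median of 20 CpG dinucleotides and 62.6% G or C, against 6 and 52.4% over all 32851 promoters, which include those of noncoding genes. The GC box GGGCGG, searched on both strands, was found in 67.7% of them, against 32.7% of all promoters, and CCAAT in 33.9%, against 33.8%. The E2F motifs TTTGGCGC or TTTCGCGC were found in 1.61%, against 0.65%, but the 1.61% is only 1 start site, of Cbx3. These are letter matches and not binding sites. The 250 bases before the start are shown for Cbx7 and Chd9, the widest differences in each direction among genes measured on both arrays, on the gene's strand with CpG in capitals.
Cbx7: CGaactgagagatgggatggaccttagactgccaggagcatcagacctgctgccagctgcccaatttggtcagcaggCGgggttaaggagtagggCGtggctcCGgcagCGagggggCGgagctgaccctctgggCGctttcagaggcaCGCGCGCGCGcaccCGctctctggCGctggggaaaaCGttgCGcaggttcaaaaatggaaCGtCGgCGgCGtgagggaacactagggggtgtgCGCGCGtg
Chd9: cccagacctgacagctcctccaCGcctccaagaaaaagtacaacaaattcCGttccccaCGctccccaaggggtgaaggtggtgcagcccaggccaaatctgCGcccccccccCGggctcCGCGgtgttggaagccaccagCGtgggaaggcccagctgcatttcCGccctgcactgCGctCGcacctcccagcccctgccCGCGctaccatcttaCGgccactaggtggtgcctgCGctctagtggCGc
The Cbx7 stretch, at chr15:79932647-79932896 (- strand), holds 23 CpG and both CCAAT and GGGCGG. The Chd9 stretch, at chr8:90828585-90828834 (+ strand) (both GRCm38.p6), holds 16 CpG and GGGCGG but not CCAAT. Chd9 has another listed start site with 1 CpG in the same window, and the probes do not say which start was used.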

How the data were processed

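Total RNA of cultured hepatoblasts at passage 20 and passage 5 was, per the labels' protocols, amplified and given a Cy3 label, and each passage has 1 array. Per the file headers, spot intensity comes from Feature Extraction 10.7.3.1, detrended in space and by a multiplicative surface, with surrogate values for spots not above noise. Deposited mean and background intensity served an alternative only. Deposited flags (saturation, outlier, well above background) are used as other, unscaled columns. The authors deposited log2 values too; both columns have the same distribution, so they look quantile normalized, but no source used here names the tool.

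Control spots and spots with an outlier flag (69 at passage 20, 73 at passage 5) were left out; 0 spots were saturated. From log2 signal the 75th percentile of all gene probes on that array was subtracted (signals of 853 at passage 20, 1085 at passage 5). Each gene took its probe with the highest mean level. Other genes were named through RefSeq (GRCm38.p6). A gene well above background on 1 array has a bound: on the dim array its own value is replaced, where lower, by the lowest level well above background there (-3.17 at passage 20, -3.32 at passage 5), written as at least N-fold. A difference is counted at 2-fold or 1.5-fold. With 1 array per passage nothing was tested, and the number of arrays limits the precision.

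The members, role groups, partner lists and alternatives were chosen with earlier results of these data known. By a written rule, values on both arrays are given for members past 1.5-fold and for the core members of each role group; other measured members are given more briefly, and up to 4 partners per list past 1.5-fold are named; a few others named (Xist, Rnf2, Bmi1, Ep300, Crebbp and the genes of the closing section) were chosen after their values were seen. Partners in each list, and the markers, stand in the text by their counts. The values of 1 member are not reported here, though it is in the counts and medians. Steps were tested on simulated data. Python 3.11.15, R 4.3.3 and limma 3.58.1 (normexp, quantile and loess alternatives) were used.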

Additional observations from a re-analysis of the deposited data

How the results depend on the processing

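Alternatives were quantile normalization, median centring, the 75th percentile over detected probes, spike-in scaling, loess, normexp (offset 50), both arrays above background, no filter on dim probes, the mean over measured probes, the authors' deposited values and flagged spots kept. The count of members higher at 2-fold (2) was 1 with quantile normalization, median centring, spike-in scaling, loess, normexp and the authors' deposited values. The count lower at 2-fold (4) was 7 with median centring and with no filter on dim probes, and 2 with normexp and with both arrays above background, which leaves out bounds. At 4-fold both counts were 0. The count higher at 1.5-fold (4) was 2 with median centring, spike-in scaling, loess and normexp. The count lower at 1.5-fold (10) was 19 with median centring, 5 with normexp and 6 with both arrays above background. The median of -0.0048 log2 was -0.32 with median centring and -0.22 with spike-in scaling, which shift all genes alike. No member past 1.5-fold changed sign under any of these alternatives. Of the single-gene values under alternatives, 445 moved by less than 0.17 log2 and 166 by more. The cut of 0.17 comes from repeat probes well above background. For a gene with 1 probe, well above background on both arrays, some alternatives repeat the main value. These are both arrays above background, no filter on dim probes and the mean over measured probes. The counts of alternatives for Cbx7, Chd2, Sirt4 and Hdac1 include such repeats. Over all genes, the counts at 2-fold (385 higher, 676 lower) were 193 and 1126 with median centring, 233 and 963 with spike-in scaling, 252 and 398 with normexp, 1289 and 1287 with no filter and 266 and 427 with both arrays above background. No paired analysis was possible because each group has 1 array. Signal near background limits Hdac8, Arid3a, Sirt6, Smarcd1 and Chd6, whose differences are bounds.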

Other observations

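Histone methyltransferase and demethylase genes, which write and erase the marks that the proteins above read, were also examined; they were chosen by symbol (Kdm, Kmt, Setd, Suv39h, Ehmt, Nsd, Dot1l and Prmt genes) after the values of the deacetylases and remodellers were seen. Of 52 on the array 49 were measured, 2 were higher and 3 lower at 2-fold (4.08% and 6.12%, against 3.26% and 5.73% of all genes), with a median of 0.10 log2. Kmt2a (MLL1), a methyltransferase of histone H3 lysine 4, had 1.77 at passage 20, against 0.56 at passage 5, and was 2.31-fold higher by its only probe. All 5 Kmt2 genes, a group picked after its values were seen, were above 0, under each of the 11 alternatives too, beside 65.3% of the list and 57.4% of all measured genes above 0 with 75th percentile scaling: Kmt2b by 0.46, Kmt2c by 0.50, Kmt2d by 0.76 and Kmt2e by 0.42. Kdm5b, a demethylase of the same lysine, was 2.08-fold higher by the probe used, past 2-fold under 6 of 11 alternatives, and its other probe gave -0.60 log2. The arginine methyltransferase gene Prmt1 had 1.18 at passage 20, against 2.71 at passage 5, and was 2.90-fold lower by its only probe. Kmt5c, a methyltransferase of histone H4 lysine 20, was 2.65-fold lower by the probe used, and its other probe gave 0.08 log2.

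The Y-linked demethylase gene Kdm5d was at least 4.07-fold lower, with -4.12 at passage 20 and -1.15 at passage 5. Over 10 alternatives the Kdm5d difference ranged from -2.98 to -1.30 log2. Its X-linked relative Kdm5c had 2.94 at passage 20, against 2.29 at passage 5, and was 1.57-fold higher, and the X-linked H3K27 demethylase gene Kdm6a had -0.54 at passage 20, against -1.06 at passage 5, a difference of 0.52. Both were above 0 under the 11 alternatives. Hdac6 and Hdac8, also on the X chromosome, were lower and Xist was higher, as given above. The sex of the cells was not tested.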
